A study of Mus musculus with 30 samples.

Results

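Between day (d) 3 and d4 of differentiation, wildtype and Nr6a1-/- cells were kept in the same medium for a further 24 h, and the change in each gene's RNA over that day was compared between the genotypes. The comparison drew on 12 of the 30 libraries of the series, 3 replicates of each of 4 groups, and on 12149 of the 54134 genes in the count table, those that passed a filter on low counts. The groups were wildtype d3, wildtype d4, Nr6a1-/- d3 and Nr6a1-/- d4. All 4 came from the mouse embryonic stem cell (ESC) line ES-Bruce4 in N2B27 medium, were given FGF2 from d0 and received CHIR99021, an agonist of the Wnt pathway, from d2, so that d3 cells had been under CHIR99021 for 24 h. None of the 4 groups received Gdf11. The Nr6a1-/- cells were a CRISPR/Cas9-edited line, 1 clone as the study's methods describe it, in which deletions in exon 4 of both alleles removed the DNA-binding domain, so that clone and genotype cannot be told apart. The quantity described is the log2 change from d3 to d4 in Nr6a1-/- cells minus the log2 change from d3 to d4 in wildtype cells, and is called here the genotype difference in the change, or the difference for short. A positive value means that a gene rose more, or fell less, in the absence of Nr6a1. Genes are called higher or lower where this difference had an adjusted p below 0.05 (edgeR quasi-likelihood test, Benjamini-Hochberg over all 12149 genes).

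Neuromesodermal progenitors (NMPs) are the dual-fated cells of the caudal embryo that feed both the spinal cord and the paraxial mesoderm, from which the somites form. In the embryo they are held in place by Wnt and FGF signals, express Brachyury (T), Sox2, Nkx1-2 and Cdx genes, and switch on Hox genes in order of their position in each cluster. Retinoic acid, made by the somites, opposes FGF signalling at the caudal end and promotes neural and somitic differentiation. Nr6a1, an orphan nuclear receptor formerly called GCNF, is expressed in these progenitors and is known as a repressor of pluripotency genes such as Pou5f1.

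Nr6a1 itself (chr2:38723370-38927688, minus strand in GRCm38) was read in all 12 libraries. Its level in wildtype cells was 178, 186 and 167 CPM (counts scaled to a common library size) at d3 and 96.8, 99.5 and 96.7 CPM at d4. In Nr6a1-/- cells it was 292, 256 and 314 CPM at d3 and 189, 224 and 255 CPM at d4, so that the edited cells held more Nr6a1 RNA than wildtype on both days. The difference in the change was 0.49 ± 0.16 (SE) and did not pass the test (edgeR adjusted p = 0.0543; 0.51 without wildtype d4 replicate 2). Reads came from the 3′ end of the transcript, outside the deleted exon, so these levels do not check the genotype. Nr6a1os (chr2:38823257-38852370, plus strand) lies antisense within Nr6a1, away from the 3′ end of Nr6a1 at 38723370. No source used here says whether counting took account of strand. Reads within the Nr6a1os interval therefore cannot be assigned to either RNA with certainty. The level counted for Nr6a1os was low, at 3.38, 2.76 and 3.6 CPM in wildtype d3, 1.31, 2.49 and 1.8 in wildtype d4, 4.42, 2.99 and 4.09 in Nr6a1-/- d3 and 3.9, 6.77 and 3.83 in Nr6a1-/- d4.

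The 12 libraries held between 2081902 and 3688197 counts. Wildtype d4 replicate 2 stood apart. The 23 listed epiblast and pluripotency genes summed to 1098 CPM in it and to 317 and 282 CPM in wildtype d4 replicates 1 and 3. Their sum was 672 to 706 CPM in wildtype d3 and 4273 to 4374 CPM in wildtype d2. In that library 15 of the 23 genes had their highest value of the 3 wildtype d4 libraries. Most of the counts and differences are therefore also given without it. In the values that follow, a log2 difference carries its SE after ±, and the second value, marked as without, is that obtained without wildtype d4 replicate 2. Nr6a1-/- d4 replicate 1 also stood apart from its group, with a TMM factor of 0.909 where the other 11 libraries had 0.969 to 1.04. Its mean distance from the other 2 replicates was 0.257 (log2) where that of the others was 0.145 to 0.203. Listed endoderm genes summed to 193 to 253 CPM in the wildtype libraries and to 32.4 to 42.3 CPM in the Nr6a1-/- libraries on both days. The part of either library, or of other cell types, in the results below was not tested unless a value is given. In bulk RNA, fewer cells of a type and less RNA per cell cannot be told apart.

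Over the 24 h, 2560 genes changed in wildtype cells (21.1% of those tested; 1187 rose, 9.77%, and 1373 fell, 11.3%) and 3144 in Nr6a1-/- cells (25.9%; 1648 rose, 13.6%, and 1496 fell, 12.3%). Of these, 1359 changed in both genotypes, 1299 in the same direction, which is 50.7% of the wildtype changes and 41.3% of the Nr6a1-/- changes. Across all genes tested the 2 changes had a Pearson r of 0.566, and of 0.655 over the 8968 genes that reached 10 CPM in a group. These are descriptions across genes of 1 set of libraries, and genes are not independent replicates. The difference itself passed the test for 695 genes (5.72% of those tested), 361 higher (2.97%) and 334 lower (2.75%) in Nr6a1-/-. Without wildtype d4 replicate 2 there were 533 (4.39%), 283 higher (2.33%) and 250 lower (2.06%). Of the 695, 479 were called in both fits, 216 were lost, and 54 others appeared, with 0 changes of sign. The median size of the difference among the called genes was 0.922 on the log2 scale, 313 exceeded 1 and 112 exceeded 2. The median over all genes was 0.0142 (0.0262 without wildtype d4 replicate 2). Leaving out Nr6a1-/- d4 replicate 1 raised the number to 1147, 483 higher and 664 lower, and leaving out Nr6a1-/- d4 replicate 3 lowered it to 447.

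**Figure D1:**
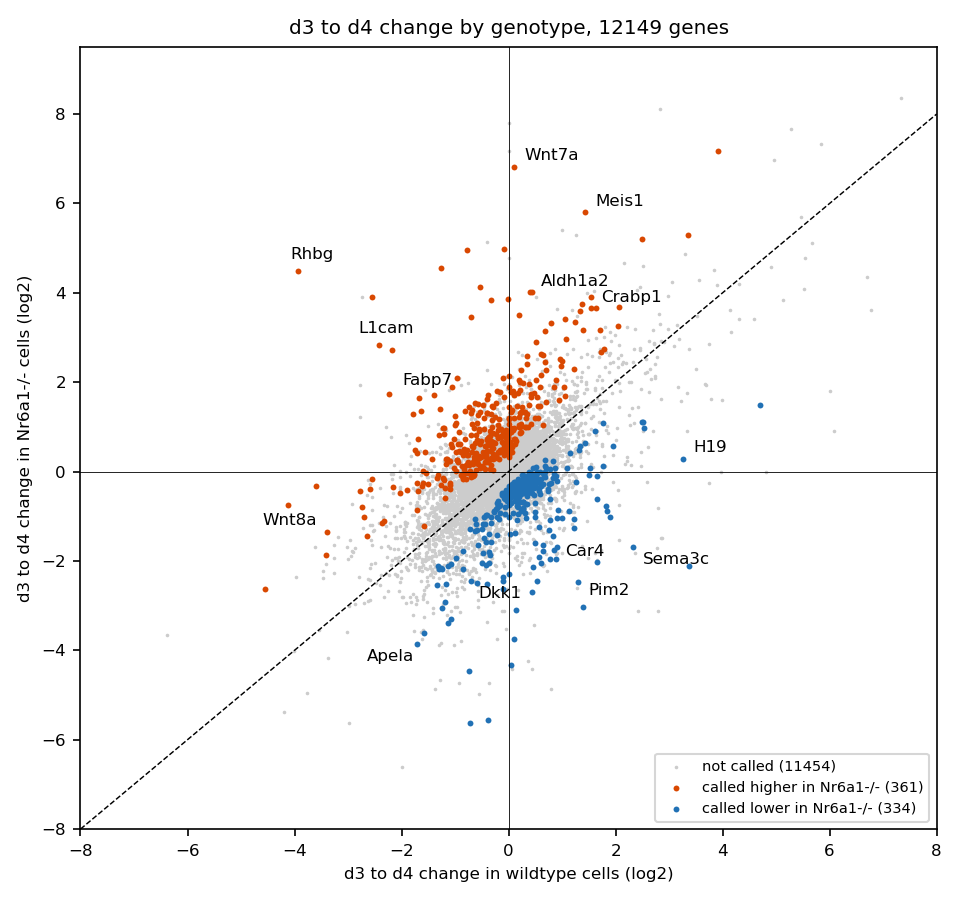
Change in RNA level from d3 to d4 in wildtype cells (x axis, log2) against that in Nr6a1-/- cells (y axis, log2), with 1 point per gene for 12149 genes and the dashed line where both changes are equal; 1 gene lies beyond the axes. The 361 genes called higher lie above the line and the 334 called lower lie below it, and Rhbg, L1cam and Fabp7 fall where wildtype fell and Nr6a1-/- rose.

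The called genes differed in how they came to differ. Most of the 361 higher genes had risen in Nr6a1-/- cells with no called change in wildtype (177), had fallen in wildtype with no called change in Nr6a1-/- (96), or had risen in both (40). Another 27 had fallen in wildtype and risen in Nr6a1-/-, 14 had fallen in both, and for 7 neither change was called. Without wildtype d4 replicate 2 these 6 numbers were 122, 81, 32, 28, 16 and 4 of 283. Of the 334 lower genes, 159 had fallen in Nr6a1-/- with no called change in wildtype, 86 had risen in wildtype with no called change in Nr6a1-/-, 33 had risen in wildtype and fallen in Nr6a1-/-, 31 had fallen in both, 12 had risen in both and for 13 neither change was called. Without that library they were 115, 67, 21, 26, 13 and 8 of 250. Changes in opposite directions were thus called for 60 genes. The difference of all 60 was also called without wildtype d4 replicate 2. Both changes were then still called in opposite directions for 43 of them, the wildtype change was not called for 15, it turned from a rise to a fall for 1 (Pim2), and the Nr6a1-/- change was not called for 1 (Tmem167). Set against the levels of each day, 395 of the 695 genes (295 of 533 without wildtype d4 replicate 2) were not called between the genotypes at d3 and were at d4. A further 122 (97) were called between the genotypes at d3 and no longer at d4, and 67 (68) were called on both days with a larger gap at d4. Another 56 (37) were called on both days in opposite directions, 5 (5) were called on both days with a smaller gap at d4, and 50 (31) were called on neither day. For comparison, 10.8% of all genes tested were called between the genotypes at d3 and 18.9% at d4.

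Among genes that reached 10 CPM, the 12 largest positive differences called in both fits belonged to Rhbg, Wnt7a, L1cam, Ntm, Meis1, Mgll, Kcna2, Aldh1a2, Wnt8a, Fabp7, Lzts1 and Sparcl1, with values from 8.41 for Rhbg down to 3.26 for Sparcl1. Several encode proteins of the neural cell surface. L1cam, a neural cell adhesion molecule (chrX:73853778-73896105, minus strand), stood at 3.38, 3.22 and 4.4 CPM in wildtype d3 and at 0, 0.829 and 0.901 CPM in wildtype d4. The Nr6a1-/- libraries read 2.01, 0.428 and 1.86 CPM at d3 and 10.8, 9.68 and 11.5 CPM at d4, the latter above every other library. It fell in one genotype and rose in the other, with a difference of 5.25 ± 0.66 (SE, n = 3 per group; edgeR adjusted p = 1.11e-06; 5.51 without wildtype d4 replicate 2). Ntm, which encodes the adhesion protein neurotrimin, was at 0.428 to 2.90 CPM in all libraries but those of Nr6a1-/- d4, where it was at 25.1, 17.4 and 23 CPM (4.67 ± 0.75; 4.31 without). Kcna2, a voltage-gated potassium channel, reached 21.2, 36.8 and 35.4 CPM in Nr6a1-/- d4 and at most 2.99 CPM elsewhere (4.14 ± 0.83; 4.17 without). Such a ranking can leave out genes with almost no counts at d3. Of 153 genes with at most 3 counts in wildtype d3 or in Nr6a1-/- d3, 57 were called between the genotypes at d4. Of these 57, 51 were not called in the difference. Fibcd1 was among them, with 0 counts in wildtype d3, wildtype d4 and Nr6a1-/- d3 and 77 in Nr6a1-/- d4.

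Fabp7, the brain fatty acid binding protein of radial glia and neural progenitors, fell in wildtype cells from 14, 18.4 and 10.8 to 2.62, 4.14 and 6.0 CPM. In Nr6a1-/- cells it rose from 27.3, 27.4 and 25.7 to 108, 81.3 and 63.5 CPM, and the 4 groups did not overlap. Its difference was 3.34 ± 0.35 (edgeR adjusted p = 1.98e-08; 3.28 without wildtype d4 replicate 2). Meis1, a homeobox cofactor of Hox proteins, behaved differently, rising in both genotypes from unequal starts: from 3.86, 6.91 and 4.8 to 16.6, 14.9 and 11.4 CPM in wildtype, and from 0, 0 and 1.12 to 29, 21.8 and 24.3 CPM in Nr6a1-/-. The Nr6a1-/- d3 base of Meis1 was 3 counts, all in replicate 3. Its difference was 4.37 ± 0.67 (4.41 without wildtype d4 replicate 2), ranged from 3.84 to 7.47 over the 12 single omissions, the upper end without Nr6a1-/- d3 replicate 3, and was called in all of them. Lzts1, which encodes a leucine zipper protein, fell in wildtype from 13, 17 and 14.8 to 0.872, 1.38 and 1.2 CPM and remained at 11.3, 20.3 and 16.2 CPM in Nr6a1-/- d4, where its change was not called (3.27 ± 0.49; 3.42 without). Mgll, which encodes monoacylglycerol lipase, stood at 1.45, 1.38 and 2.8 CPM in wildtype d3, 2.62, 0.829 and 1.5 in wildtype d4, 0.803, 0.855 and 0.372 in Nr6a1-/- d3 and 11.3, 7.26 and 11.9 in Nr6a1-/- d4. The difference of Mgll was 4.16 ± 0.83, against 3.80 without. Sparcl1, a matricellular protein gene, rose in both, from 0.965, 3.22 and 3.2 to 41.8, 30.9 and 44.4 CPM in wildtype and from 0.402, 0.428 and 1.12 to 142, 84.7 and 84.8 CPM in Nr6a1-/-. Its difference of 3.26 ± 0.77 (3.10 without wildtype d4 replicate 2) ranged from 2.96 to 3.88 over the 12 single omissions and was not called without wildtype d3 replicate 3.

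The largest difference of all rested on few counts. Rhbg, an ammonium transporter gene (chr3:88242874-88254709, minus strand), had 5 counts in wildtype d3, 0 in wildtype d4, 5 in Nr6a1-/- d3 and 108 in Nr6a1-/- d4. At d4 its level was 18.2, 13.1 and 16.6 CPM in the Nr6a1-/- libraries, at least 49.5-fold higher than in wildtype with the wildtype group set at a floor of 3 counts. The fitted difference of 8.41 (edgeR adjusted p = 8.18e-04; 8.39 without) depends on how zero counts are treated, and the fall in wildtype was no longer called without wildtype d4 replicate 2 (edgeR adjusted p = 0.0999). Wnt7a, a Wnt ligand, had 2, 3, 1 and 141 counts in the same order of groups, a d4 ratio of Nr6a1-/- to wildtype of 64.6 (95% interval 21.7 to 317, counting error only). Its difference of 6.72 ± 2.00 (edgeR adjusted p = 0.0397) was called in 4 of 12 single omissions, that of wildtype d4 replicate 2 included (9.54). The call was lost on leaving out replicate 1 or 3 of Nr6a1-/- d3, wildtype d3 or wildtype d4, or replicate 2 or 3 of Nr6a1-/- d4.

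**Figure D2:**
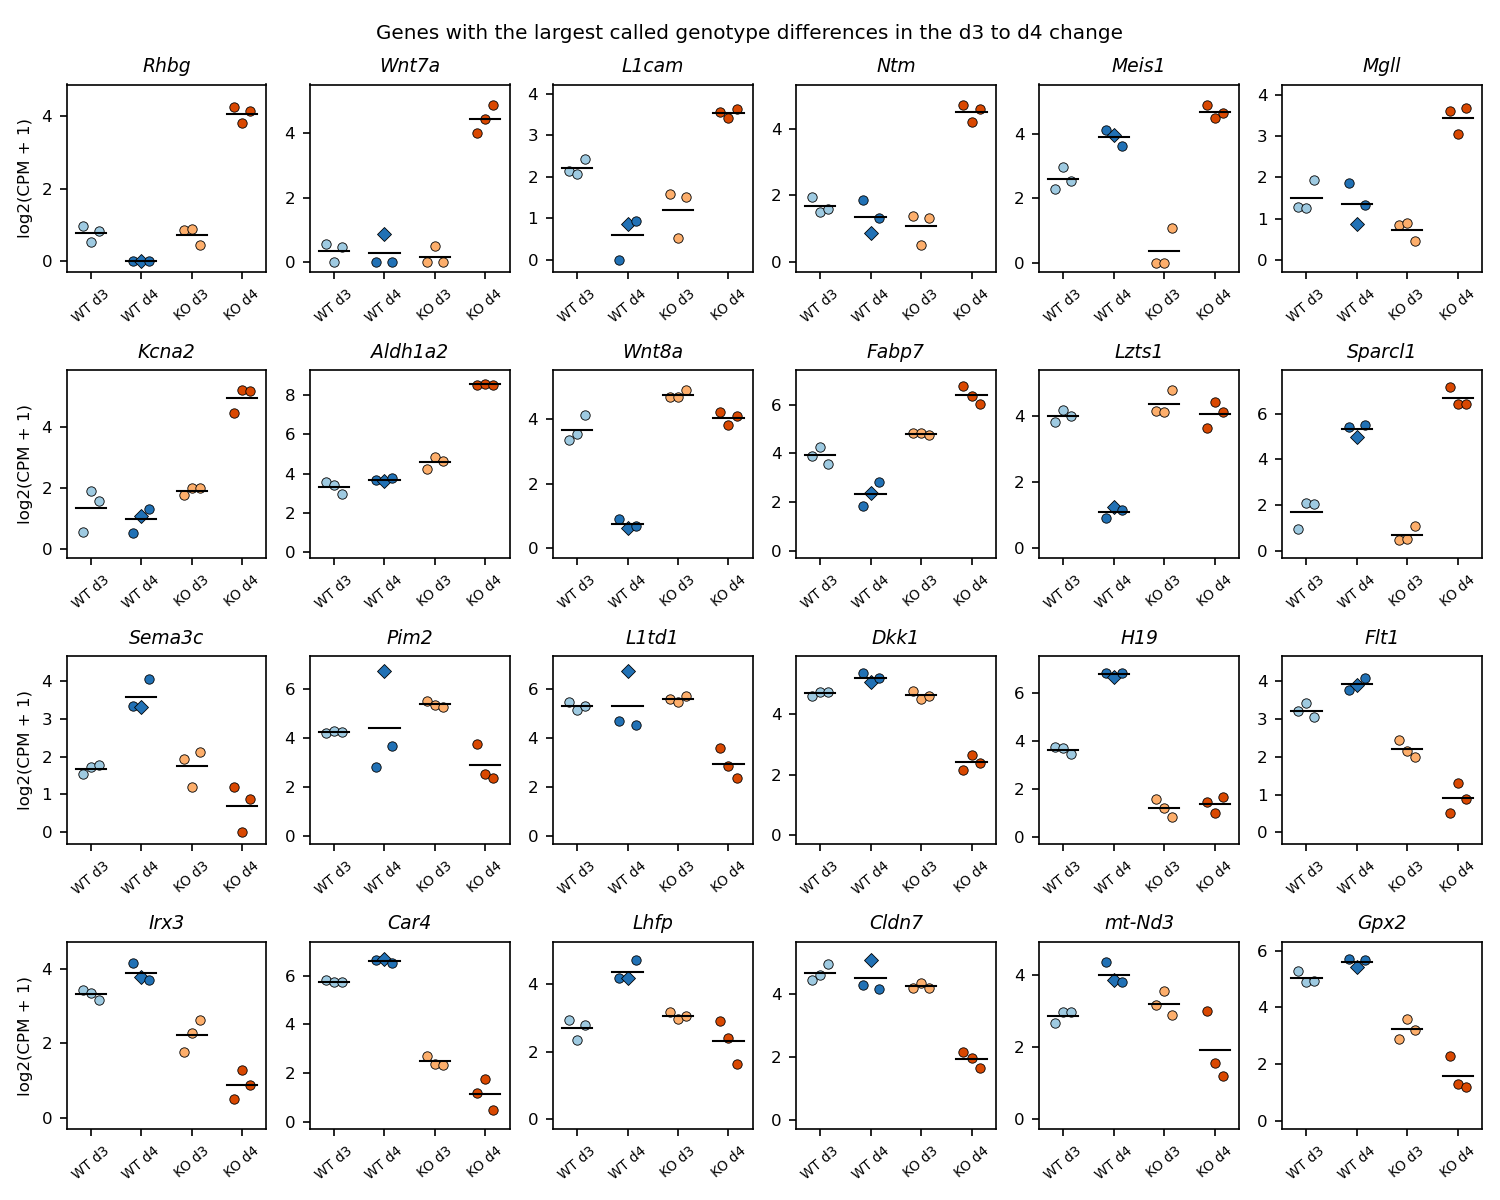
Level of the 24 genes with the largest called differences (y axis, log2 of CPM plus 1) in wildtype (WT, blue) and Nr6a1-/- (KO, orange) libraries at d3 and d4, with 1 point per library, a diamond for wildtype d4 replicate 2 and a bar at the mean of the 3 libraries. In the upper 12 panels the Nr6a1-/- d4 points lie above those of wildtype d4, in the lower 12 panels they lie below except for Pim2, where the groups overlap, and the diamond stands far above its group for Pim2 and L1td1.

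The 12 largest negative differences were those of Sema3c, Pim2, L1td1, Dkk1, H19, Flt1, Irx3, Car4, Lhfp, Cldn7, mt-Nd3 and Gpx2. Dkk1, a secreted inhibitor of Wnt co-receptors (chr19:30545863-30549665, minus strand), rose in wildtype cells from 23.2, 25.8 and 26 to 40.5, 32.3 and 36.3 CPM. In Nr6a1-/- cells it fell from 26.1, 21.8 and 23.4 to 3.47, 5.32 and 4.26 CPM, while the d3 levels of the genotypes were not called different. The difference was -2.98 ± 0.26 (edgeR adjusted p = 7.32e-10; -3.06 without wildtype d4 replicate 2) and ranged from -3.13 to -2.84 over the 12 single omissions. Flt1, a VEGF receptor gene, likewise rose in wildtype from 8.21, 9.67 and 7.2 to 12.6, 13.8 and 15.9 CPM and fell in Nr6a1-/- from 4.42, 3.42 and 2.98 to 0.433, 1.45 and 0.852 CPM. Flt1 differed by -2.72 ± 0.51, or -2.74 without. Car4, a carbonic anhydrase gene, already lay far apart at d3, with 56, 51.6 and 51.6 CPM in wildtype and 5.62, 4.28 and 4.09 CPM in Nr6a1-/-. By d4 it was at 97.2, 101 and 89.2 CPM in wildtype and 1.3, 2.42 and 0.426 CPM in Nr6a1-/-, a difference of -2.61 ± 0.44 (-2.57 without). Gpx2, a glutathione peroxidase gene, showed the same order, with 37.7, 28.5 and 29.2 CPM in wildtype d3, 50.6, 41.7 and 49.5 in wildtype d4, 6.42, 11.1 and 8.18 in Nr6a1-/- d3 and 3.9, 1.45 and 1.28 in Nr6a1-/- d4. For Gpx2 the difference was -2.48 ± 0.40, and -2.57 without.

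Sema3c, a secreted semaphorin that guides axons and neural crest cells, rose in wildtype from 1.93, 2.3 and 2.4 to 9.15, 8.84 and 15.6 CPM and stood at 1.3, 0 and 0.852 CPM in Nr6a1-/- d4. The difference of Sema3c was -4.01 ± 0.84, against -4.18 without wildtype d4 replicate 2. Lhfp rose in wildtype from 6.76, 4.14 and 6.0 to 17.4, 17.4 and 25.2 CPM with no called change in Nr6a1-/- (-2.61 ± 0.45; -2.71 without). The mitochondrial gene mt-Nd3, a subunit of respiratory complex I, rose in wildtype from 5.31, 6.91 and 6.8 to 19.6, 13.5 and 12.9 CPM and fell in Nr6a1-/- from 8.03, 10.7 and 6.32 to 6.93, 1.94 and 1.28 CPM, the value of 6.93 being that of Nr6a1-/- d4 replicate 1. mt-Nd3 differed by -2.49 ± 0.46, or -2.57 without wildtype d4 replicate 2. Values from -3.58 to -2.08 were found over the single omissions. The values of 2 of the 12, Pim2 and L1td1, turned on wildtype d4 replicate 2. Pim2, a serine/threonine kinase gene, was at 17.4, 18.4 and 18 CPM in wildtype d3 and 6.1, 106 and 11.7 CPM in wildtype d4, and fell in Nr6a1-/- from 45, 39.8 and 37.9 to 12.6, 4.84 and 4.26 CPM. With all libraries the wildtype change was a rise of 1.30, and without replicate 2 it was -0.94, a fall, while the difference went from -3.78 to -1.54 and remained called. L1td1, an RNA-binding protein gene of pluripotent cells, went from -3.13 to -1.95 in the same way.

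The retinoid genes that were called all moved in 1 direction. Of 14 measured genes for the synthesis, transport, binding and degradation of retinoic acid, 6 were higher and 0 lower in Nr6a1-/-, with the same 6 called without wildtype d4 replicate 2. The share called was 42.9%, against 5.72% over all genes tested (2.97% higher and 2.75% lower). The median difference of the 14 was 0.63 (0.72 without) against 0.0142 over all genes. Aldh1a2, the enzyme that makes most of the embryo's retinoic acid (chr9:71215789-71296243, plus strand), was at 11.1, 9.67 and 6.8 CPM in wildtype d3 and 11.8, 11.3 and 12.9 CPM in wildtype d4, a change that was not called. In Nr6a1-/- cells it rose from 17.7, 27.8 and 24.2 to 369, 386 and 373 CPM, so that the d4 libraries lay apart from all others. The difference was 3.61 ± 0.34 (SE, n = 3 per group; edgeR adjusted p = 2.94e-09; 3.57 without wildtype d4 replicate 2). The other genes described here are those whose products handle retinoids or turn retinoic acid over. Dhrs3, which reduces retinaldehyde back to retinol, was at 28.8, 27.6 and 35.7 CPM in wildtype d4 and 102, 147 and 133 CPM in Nr6a1-/- d4, from 21.8 ± 1.61 and 17.1 ± 1.94 CPM at d3 (mean ± SD; 2.39 ± 0.24, edgeR adjusted p = 1.63e-08; 2.30 without). Crabp1, a cytoplasmic carrier of retinoic acid, rose in both genotypes but from different levels, from 246, 234 and 228 to 728, 578 and 743 CPM in wildtype and from 71.5, 60.7 and 72.2 to 917, 845 and 809 CPM in Nr6a1-/-. For Crabp1 the difference was 2.12 ± 0.13 (edgeR adjusted p = 6.76e-14), and 2.01 without. At d3 it was lower in Nr6a1-/- and at d4 higher.

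Stra6, the membrane receptor for retinol-binding protein, crossed over in the same manner, from 39.1, 36.4 and 27.2 to 44, 33.2 and 43.8 CPM in wildtype and from 14.9, 14.1 and 13.8 to 58.5, 74 and 73.7 CPM in Nr6a1-/-. The difference of Stra6 was 2.03 ± 0.23, against 1.90 without wildtype d4 replicate 2. Cyp26a1, which degrades retinoic acid and is itself a well known retinoic acid target, was lower in Nr6a1-/- at d3 (10.04, 8.98 and 7.81 against 18.3, 18 and 20 CPM). At d4 it was at 20.8, 38.2 and 27.3 CPM against 23.5, 24.6 and 27.3 CPM, and no longer called different (1.25 ± 0.31, edgeR adjusted p = 0.01; 1.23 without). All 6 differences were called in each of the 12 single omissions. Rarb, Cyp26b1 and Cyp26c1, also on the retinoid list, did not pass the filter. In wildtype d3, wildtype d4, Nr6a1-/- d3 and Nr6a1-/- d4, Rarb and Cyp26c1 each had 0, 0, 0 and 1 counts. Cyp26b1 had 0, 1, 0 and 2 counts in the same order.

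The promoter sequences of these genes, from RefSeq on GRCm38.p6 and running from 250 bases before to 50 bases after the annotated start, were searched for the half-site AGGTCA of nuclear receptors and for the retinoic acid response element known as DR5. The DR5 was taken as a pair of half-sites in direct repeat with 5 bases between them, on either strand, where each was AGGTCA or one of the variants AGTTCA and also GGGTCA and also GGTTCA. This search was chosen after the values were seen. A DR5 was found in the promoters of 4 of 8800 tested genes with a promoter in the table (0.0455%), of which Cyp26a1 was called higher and Prokr2, Blvrb and Hbb-y were not called. The single half-site AGGTCA occurred in 14.2% of the 8800, in 11.8% of the 263 called higher and in 11.5% of the 244 called lower. Its exact direct repeat with no spacer, the arrangement Nr6a1 is known to bind, occurred in 0 of the 8800. That search therefore could not set called genes apart from others. The promoters of the genes for degradation, synthesis and binding of retinoic acid are shown on the plus strand, which is the strand of all 3 genes, with half-sites of the DR5 search in capitals. In Cyp26a1 (chr19:37697558-37697857) both lie on the opposite strand, with their first plus-strand bases at -32 and -21 from the start. Aldh1a2 (chr9:71215539-71215838) and Crabp1 (chr9:54764498-54764797) hold none of these half-sites in the window.
Cyp26a1: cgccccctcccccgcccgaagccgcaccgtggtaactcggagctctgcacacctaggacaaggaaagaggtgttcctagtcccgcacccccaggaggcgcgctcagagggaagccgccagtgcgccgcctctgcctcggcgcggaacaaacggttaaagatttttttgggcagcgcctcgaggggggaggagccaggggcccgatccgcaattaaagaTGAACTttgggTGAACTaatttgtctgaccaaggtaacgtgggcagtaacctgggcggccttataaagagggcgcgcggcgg
Aldh1a2: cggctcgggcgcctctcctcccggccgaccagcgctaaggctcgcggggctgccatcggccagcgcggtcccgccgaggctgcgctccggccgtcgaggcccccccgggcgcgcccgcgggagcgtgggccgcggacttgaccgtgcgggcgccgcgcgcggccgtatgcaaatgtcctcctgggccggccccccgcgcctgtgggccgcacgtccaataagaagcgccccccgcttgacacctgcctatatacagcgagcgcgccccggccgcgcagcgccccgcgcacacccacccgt
Crabp1: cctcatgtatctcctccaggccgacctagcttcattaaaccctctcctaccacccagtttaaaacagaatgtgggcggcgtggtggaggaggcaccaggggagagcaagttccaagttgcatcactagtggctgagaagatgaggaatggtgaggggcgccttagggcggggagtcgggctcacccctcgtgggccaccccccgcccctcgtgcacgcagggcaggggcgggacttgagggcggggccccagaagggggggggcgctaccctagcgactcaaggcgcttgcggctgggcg
A match describes the letters of a window, and no binding was measured here.

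**Figure D3:**
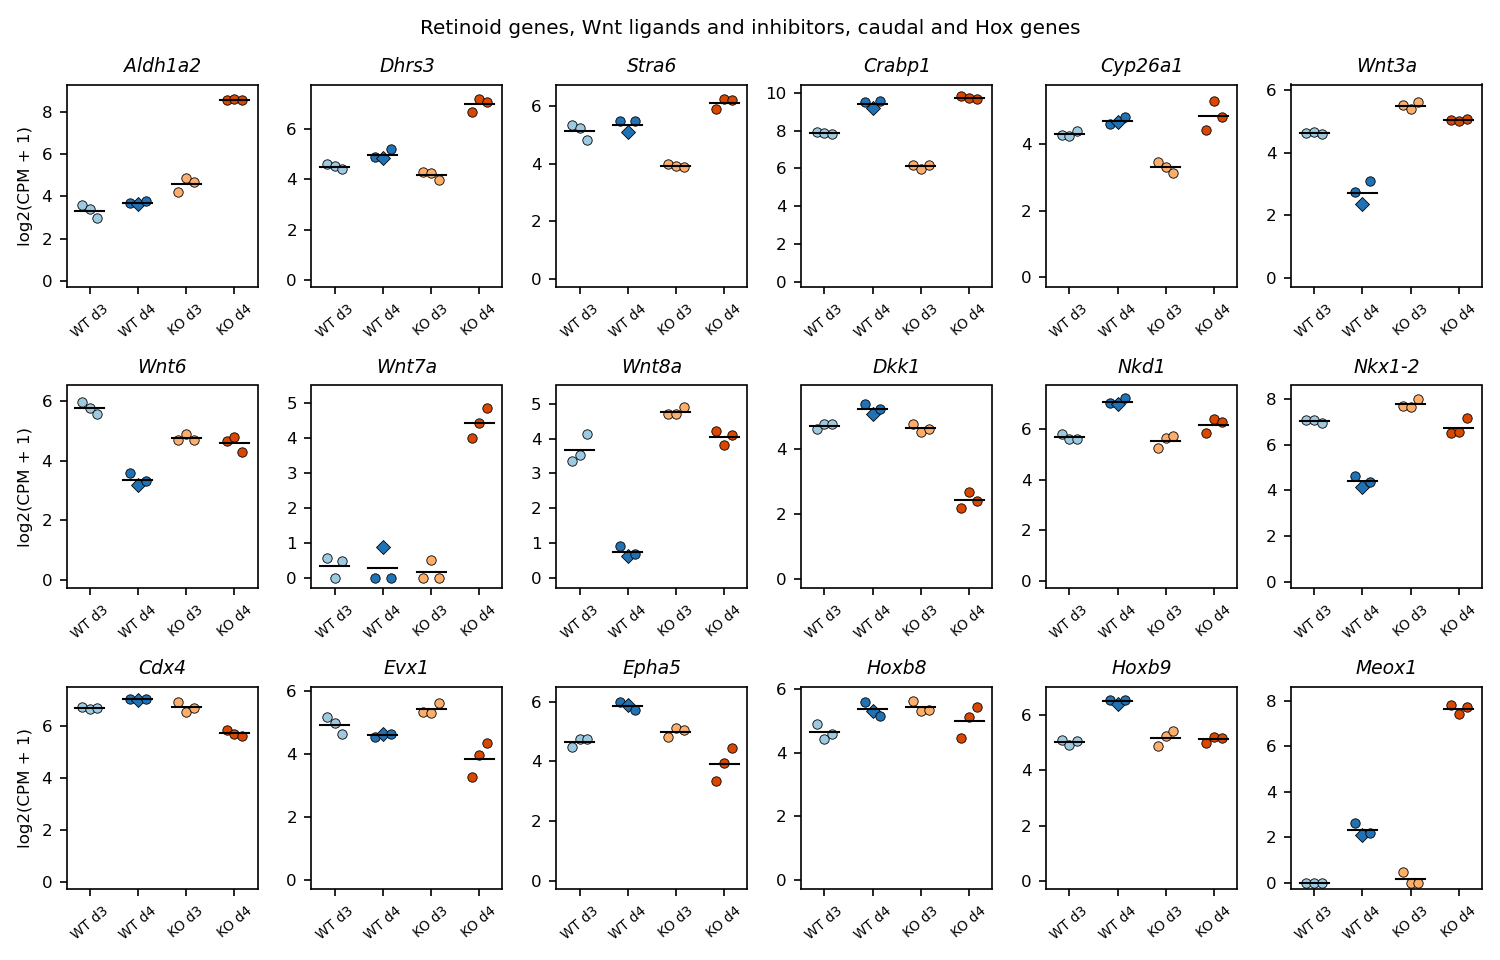
Level (y axis, log2 of CPM plus 1) of 5 retinoid genes, Wnt ligands and inhibitors, and caudal, Hox and somite genes in wildtype (WT) and Nr6a1-/- (KO) libraries at d3 and d4, with 1 point per library, a diamond for wildtype d4 replicate 2 and a bar at the mean of the 3 libraries. The 5 retinoid genes climb further from d3 to d4 in Nr6a1-/- than in wildtype, Wnt3a, Wnt6 and Wnt8a drop in wildtype, and Dkk1 drops in Nr6a1-/- alone.

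Of 9 measured Wnt ligands, 4 were higher and 0 lower, and without wildtype d4 replicate 2 the same 4 were higher and Wnt5a was lower (-0.91, edgeR adjusted p = 0.0278; -0.74 with it). The share called with that library was 44.4%, against 5.72% over all genes, and the median difference was 0.23 with it and 0.88 without it. Wnt8a, a ligand of the early caudal epiblast, fell in wildtype from 9.17, 10.6 and 16.4 to 0.872, 0.553 and 0.60 CPM. In Nr6a1-/- cells it went from 24.9, 24.8 and 29 to 17.8, 13.1 and 16.2 CPM, a smaller fall (3.39 ± 0.58, edgeR adjusted p = 1.65e-04; 3.27 without). Wnt3a, the main Wnt ligand of the tailbud and of the NMPs, was at 23.7, 24.4 and 23.2 CPM in wildtype d3 and 5.67, 4.14 and 7.5 in wildtype d4, and at 44.6, 41.1 and 48 CPM at d3 and 32.1, 31.4 and 32.8 CPM at d4 in Nr6a1-/-. For Wnt3a the difference was 1.56 ± 0.33 (edgeR adjusted p = 0.00267), and 1.34 without. Its fall passed the test in wildtype only, and the difference between the falls is the quantity tested. Wnt6 fell in wildtype from 62.8, 53.4 and 46.8 to 10.9, 8.01 and 9.01 CPM with no called change in Nr6a1-/-, where it was at 25.3, 28.7 and 25.3 CPM at d3 and 24.7, 27.1 and 18.7 CPM at d4. The difference of Wnt6 was 2.39 ± 0.24 (edgeR adjusted p = 1.44e-08), against 2.28 without. Wnt7a is described above.

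Readouts and feedback inhibitors of the Wnt pathway were called in both directions. Of 17 measured, 1 was higher (Znrf3) and 3 lower (Dkk1, Nkd1, Ccnd1), the same 4 without wildtype d4 replicate 2, with a median of -0.02 (-0.07 without). These 4 were 23.5% of the list, against 5.72% called over all genes. Nkd1, an intracellular inhibitor that Wnt signalling induces, rose less in Nr6a1-/-, from 36.9, 49.2 and 52.1 to 55.9, 83.2 and 75.8 CPM against 55, 47.9 and 47.2 to 130.3, 125 and 148 CPM in wildtype. Nkd1 differed by -0.80 ± 0.19, or -0.85 without. Ccnd1, which encodes cyclin D1, fell in Nr6a1-/- from 232, 232 and 231 to 133, 129.7 and 144 CPM (-0.59 ± 0.12; -0.53 without). Axin2, the feedback gene most used as a Wnt readout, had changes of -0.16 in wildtype and -0.18 in Nr6a1-/-, a difference of -0.02 ± 0.14 (-0.07 without), and Lef1 and Sp5 had differences of 0.18 ± 0.14 and 0.26 ± 0.13 (0.12 and 0.23 without), none of them called. The call of Znrf3 (0.75; 0.75 without), a ligase that removes Wnt receptors, was lost on leaving out Nr6a1-/- d3 replicate 1, wildtype d3 replicate 3 or Nr6a1-/- d4 replicate 2, over a range of 0.61 to 0.85.

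Among 17 caudal progenitor factors, 4 were higher (Nkx1-2, Mixl1, Wnt3a, Wnt8a) and 3 lower (Cdx4, Evx1, Epha5), and without wildtype d4 replicate 2 Fgf8 joined the lower genes. With all libraries 41.2% were called, against 5.72% over all genes, and the called members split in direction. Nkx1-2, a homeobox gene of NMPs, fell in wildtype from 133, 134 and 120.4 to 23.5, 16.9 and 19.8 CPM and in Nr6a1-/- from 204, 202 and 254 to 89.2, 93.4 and 141 CPM, a smaller fall. For Nkx1-2 the difference was 1.68 ± 0.23 (edgeR adjusted p = 4.72e-06), and 1.56 without. Mixl1, a primitive streak gene, behaved similarly, with 151, 148 and 166 CPM at d3 and 17, 27.9 and 23.1 CPM at d4 in wildtype and 163, 223 and 218 CPM at d3 and 75.4, 163 and 109 CPM at d4 in Nr6a1-/-. The difference of Mixl1 was 1.93 ± 0.27, against 2.12 without. Cdx4, a caudal homeobox gene and an activator of trunk Hox genes, was not called between the genotypes at d3, with 106, 99.9 and 102 CPM in wildtype and 121, 92.4 and 103 CPM in Nr6a1-/-. It rose to 131, 128 and 129.7 CPM in wildtype d4 and fell to 55.9, 49.8 and 48.1 CPM in Nr6a1-/- d4 (-1.37 ± 0.15, edgeR adjusted p = 7.80e-08; -1.38 without). Evx1, a caudal homeobox gene, fell in Nr6a1-/- from 39.3, 38.1 and 48.4 to 8.66, 14.5 and 19.2 CPM against 35.2, 30.4 and 23.6 CPM at d3 and 22.2, 24 and 24 CPM at d4 in wildtype. Evx1 differed by -1.24 ± 0.29, or -1.22 without. Epha5, an ephrin receptor expressed in NMPs, rose in wildtype from 21.2, 25.8 and 26 to 61.9, 57.7 and 51.9 CPM and fell in Nr6a1-/- from 27.3, 33.4 and 32 to 9.1, 14.5 and 20.9 CPM. For Epha5 the difference was -2.27 ± 0.28 (edgeR adjusted p = 5.66e-07), and -2.26 without.

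For other markers of the progenitor state no difference was called. T, the mesodermal T-box factor of NMPs, fell in both genotypes, with log2 changes of -1.89 in wildtype and -1.91 in Nr6a1-/- cells and a difference of -0.02 ± 0.14 (-0.10 without). Its level was higher in Nr6a1-/- on both days, at 309 ± 11.2 and 83.7 ± 8.31 CPM in wildtype d3 and d4 and 504 ± 35.4 and 134 ± 24.6 CPM in Nr6a1-/- (mean ± SD, n = 3). Tbx6, which commits progenitors to paraxial mesoderm, rose by 2.90 in wildtype and 2.89 in Nr6a1-/- (-0.01 ± 0.16; -0.06 without). Sox2, the neural partner of T, had a difference of -0.22 ± 0.21 (0.02 without wildtype d4 replicate 2) and Cdx2 one of -0.38 ± 0.17 (-0.41 without), neither called. Bhlhe41, a transcriptional repressor of the circadian clock, is on none of the lists and was chosen after its values were seen. It fell from 62.8, 78.7 and 98 to 17.9, 22.1 and 28.5 CPM in wildtype and rose from 22.5, 25.7 and 26.4 to 63.2, 52.2 and 66.5 CPM in Nr6a1-/- (3.08 ± 0.32; 3.04 without).

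Few Hox genes were called in the difference. All 11 measured trunk Hox genes (groups 6 to 9) rose in wildtype and 8 of them rose in Nr6a1-/-. In the difference 0 were higher and 2 lower (18.2%, against 5.72% called over all genes), with a median of -0.35 (-0.41 without wildtype d4 replicate 2). The 2 lower genes were neighbours in the Hoxb cluster. Hoxb9 rose in wildtype from 32.8, 29.5 and 32 to 92.4, 82.6 and 92.2 CPM with no called change in Nr6a1-/-, where it was at 28.5, 37.2 and 41.7 CPM at d3 and 30.8, 35.8 and 34.9 CPM at d4. Hoxb9 differed by -1.58 ± 0.23 (edgeR adjusted p = 1.27e-05), or -1.64 without. Hoxb8 was higher in Nr6a1-/- at d3 (48.6, 39.3 and 39.8 against 29, 20.7 and 23.2 CPM) and the groups overlapped at d4 (21.2, 33.9 and 42.6 against 48, 39.2 and 35.1 CPM; -1.12 ± 0.28, edgeR adjusted p = 0.012; -1.14 without). Among trunk genes of other clusters, Hoxc8, Hoxc9 and Hoxa9 were lower in Nr6a1-/- on both days, with differences in the change of 0.55 ± 0.27, -0.35 ± 0.40 and -0.62 ± 0.47 (0.43, -0.47 and -0.78 without) that were not called. Of 10 posterior Hox genes (groups 10 to 13) 0 were called by edgeR with or without wildtype d4 replicate 2, 0 by DESeq2, and 1 (Hoxb13) had an unadjusted p below 0.05 in edgeR. Summed counts in wildtype d3, wildtype d4, Nr6a1-/- d3 and Nr6a1-/- d4 were 0, 1, 1 and 0 for Hoxc11 and 0, 0, 1 and 0 for Hoxd12. They were 3, 2, 0 and 1 for Hoxa11, 1, 3, 0 and 4 for Hoxd10, and 0, 4, 2 and 6 for Hoxd11. These genes passed the filter through groups outside the comparison, and so few counts could hardly give a call. Hoxb13, at 0, 0 and 0 CPM in wildtype d3 and 0.872, 0.829 and 0.30 in wildtype d4, was already at 24.5, 25.2 and 27.2 CPM in Nr6a1-/- d3 and was at 19.1, 27.1 and 18.7 CPM in Nr6a1-/- d4. Its change within Nr6a1-/- cells was -0.25 and was not called.

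Of 10 measured somite and paraxial mesoderm genes Aldh1a2 alone was called higher (10%, against 5.72% called over all genes), with Tcf15 added without wildtype d4 replicate 2 or Nr6a1-/- d4 replicate 2. The difference of Tcf15 was 1.87 with all libraries and 2.88 without wildtype d4 replicate 2, its wildtype d4 levels being 0.872, 5.25 and 1.8 CPM. The median difference of the list was 0.95 (0.90 without). Its genes summed to 87.9 to 95.5 CPM in wildtype d4 and to 641 to 682 CPM in Nr6a1-/- d4, from 37.7 to 42.4 and 40.2 to 48.0 CPM at d3. Aldh1a2 and Meox1 made up most of the Nr6a1-/- d4 sum, and the 8 other genes summed to 73.2 to 79.0 CPM in wildtype d4 and 85.6 to 86.2 CPM in Nr6a1-/- d4. Meox1, a homeobox gene of the somites chosen for description after its values were seen, had 0 counts in wildtype d3 and 1 in Nr6a1-/- d3, which leaves no base for a change. At d4 it was at 5.23, 3.32 and 3.6 CPM in wildtype and 226, 169 and 209 CPM in Nr6a1-/-, groups that did not overlap (d4 difference 5.67 on the log2 scale, edgeR adjusted p = 3.60e-20). Its difference in the change could not be estimated (SE 20.7). Of 14 presomitic and segmentation clock genes, 10 rose in Nr6a1-/- and 8 in wildtype, 0 fell in either, and 1, Mesp1, was called higher (7.14%, against 5.72% called over all genes). That call was lost without wildtype d4 replicate 2, Nr6a1-/- d3 replicate 2, or wildtype d3 replicate 1 or 3, its level being at most 1.45 CPM outside Nr6a1-/- d4. Dll1, a Notch ligand of the presomitic mesoderm, rose by 2.46 in wildtype and 2.72 in Nr6a1-/- (0.26 ± 0.23; 0.14 without), a difference that was not called.

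Of 17 neural progenitor genes, 4 were higher (Fabp7, Ncam1, Hes5, Nes) and 1 lower (Irx3), or 29.4% against 5.72% called over all genes. Tubb3 joined the higher genes without wildtype d4 replicate 2. Ncam1, a neural cell adhesion molecule, rose in both genotypes, from 107, 95.8 and 135 to 221, 249 and 418 CPM in wildtype and from 55.8, 74 and 95.2 to 709.5, 595 and 726 CPM in Nr6a1-/-. The difference of Ncam1 was 1.77 ± 0.32, against 1.66 without. Nes, an intermediate filament gene of neural progenitors, fell in wildtype from 76.3, 117 and 88.4 to 31, 55 and 32.1 CPM with no called change in Nr6a1-/- (241, 243 and 229 CPM at d3 and 240.0, 181 and 222 CPM at d4; 1.08 ± 0.21; 1.42 without). Irx3, a homeobox gene of the neural plate, fell in Nr6a1-/- from 2.41, 3.85 and 5.21 to 0.433, 1.45 and 0.852 CPM while wildtype held 9.65, 9.21 and 8.0 CPM at d3 and 16.6, 12.7 and 12 CPM at d4. Irx3 differed by -2.65 ± 0.60, or -2.70 without. Hes5, a Notch target, rose in both genotypes, and its difference of 1.93 ± 0.54 (1.83 without wildtype d4 replicate 2) was lost on leaving out Nr6a1-/- d3 replicate 1, wildtype d3 replicate 3 or Nr6a1-/- d4 replicate 3 (1.49 to 2.28). Pax6 and Sox1, which mark committed neural cells, stood below 5 CPM in every library and were not called. Of 24 axon guidance genes 3 were higher and 3 lower, or 25% against 5.72% called over all genes (4 and 3 without wildtype d4 replicate 2). The lower ones were Sema3c, Epha5 and Nrp2 (-0.85; -0.85 without), which held in all 12 single omissions. Of the higher ones Sema5a, a semaphorin that fell in wildtype and rose in Nr6a1-/- (2.19; 2.40 without), did too. In all 1 remained of 3 when Nr6a1-/- d3 replicate 1 or 2, wildtype d3 replicate 3 or wildtype d4 replicate 1 was left out.

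Of 22 FGF ligands and ERK feedback genes, 4 were higher (Fgf4, Fgf15, Dusp6, Spry2) and 1 lower (Egr1), or 22.7% against 5.72% called over all genes. Without wildtype d4 replicate 2 there were 3 and 2, Dusp6 being lost and Fgf8 gained. The ligands Fgf4 and Fgf15 and the early gene Egr1 were called in all 12 single omissions. Fgf4, an early epiblast and streak ligand, was at 11.1, 8.29 and 12.4 CPM in wildtype d3, 12.6, 21.3 and 15 in wildtype d4, 11.6, 15.4 and 17.5 in Nr6a1-/- d3 and 81.9, 84.2 and 107 in Nr6a1-/- d4. For Fgf4 the difference was 1.97 ± 0.29 (edgeR adjusted p = 1.41e-05), and 2.22 without. Fgf15 rose in both, from 7.72, 7.83 and 5.6 to 15.3, 12.2 and 17.1 CPM in wildtype and from 4.82, 8.98 and 10.8 to 55.9, 71.6 and 66 CPM in Nr6a1-/-. The difference of Fgf15 was 1.89 ± 0.39, against 1.74 without. Egr1, an immediate early gene of ERK signalling, rose less in Nr6a1-/-, to 22.1, 28.1 and 18.3 CPM from 9.64, 12.8 and 9.3, than in wildtype, to 46.6, 45.6 and 46.2 CPM from 9.17, 6.91 and 8.0. Egr1 differed by -1.41 ± 0.29, or -1.42 without. Dusp6 (1.13, 1.10 without; 0.93 to 1.39 over the omissions) and Spry2 (0.95, 0.97 without; 0.80 to 1.10) are inhibitors induced by ERK. The call of Dusp6 was lost without Nr6a1-/- d3 replicate 1 or 2, wildtype d3 replicate 1, 2 or 3, Nr6a1-/- d4 replicate 1 or 3, or wildtype d4 replicate 1 or 2, and that of Spry2 without Nr6a1-/- d3 replicate 1, wildtype d3 replicate 3, Nr6a1-/- d4 replicate 2 or 3, or wildtype d4 replicate 1. The higher count went to 2 when Nr6a1-/- d3 replicate 1, wildtype d3 replicate 3, Nr6a1-/- d4 replicate 3 or wildtype d4 replicate 1 was left out. Fgf8, the main FGF of the caudal end, was at 143, 122 and 127 CPM at d3 and 149.5, 121 and 138 CPM at d4 in wildtype and 88.3, 106 and 94.8 CPM at d3 and 71, 52.7 and 78.4 CPM at d4 in Nr6a1-/- (-0.57 ± 0.18, edgeR adjusted p = 0.0591; -0.65, 0.0417 without).

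BMP and TGF-beta family genes gave 2 higher (Id2, Fst) and 1 lower (Id3) of 15, the same without wildtype d4 replicate 2. Id2 and Id3, both inhibitors of bHLH factors and BMP targets, moved against each other. Id2 rose in wildtype from 19.8, 22.1 and 21.6 to 55.8, 61.9 and 67.5 CPM and in Nr6a1-/- from 4.82, 3.85 and 4.09 to 77.5, 56.1 and 60.1 CPM, and the gap called at d3 was no longer called at d4. For Id2 the difference was 2.36 ± 0.28 (edgeR adjusted p = 3.26e-07), and 2.36 without. Id3 rose in wildtype from 61.8, 53.9 and 52 to 200.1, 177 and 194 CPM with no called change in Nr6a1-/- (99.2, 89.8 and 85.9 CPM at d3 and 140.3, 73.5 and 83.5 CPM at d4; -1.65 ± 0.21; -1.70 without). Fst, which encodes the activin antagonist follistatin, fell in both, from 190.2, 175 and 172 to 5.23, 7.46 and 9.31 CPM in wildtype and from 366, 380.1 and 420.3 to 59.3, 53.7 and 74.6 CPM in Nr6a1-/-. The difference of Fst was 1.93 ± 0.19 (edgeR adjusted p = 8.84e-09), against 1.92 without.

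The called genes of glycolysis and the hypoxia response all moved in 1 direction, with 7 higher and 0 lower of 27 (5 and 0 without wildtype d4 replicate 2; 4 without Nr6a1-/- d3 replicate 2) and a median of 0.38 (0.32 without wildtype d4 replicate 2). With all libraries 25.9% were called, against 5.72% over all genes. The largest difference was that of Egln3, a prolyl hydroxylase induced by hypoxia-inducible factor, at 8.69, 4.14 and 9.6 CPM in wildtype d3, 2.18, 6.08 and 2.7 in wildtype d4, 11.2, 11.5 and 10.8 in Nr6a1-/- d3 and 42.5, 51.3 and 49.4 in Nr6a1-/- d4. Egln3 differed by 3.04 ± 0.45 (edgeR adjusted p = 1.90e-05), or 3.67 without. Ddit4, an inhibitor of mTORC1 also induced by hypoxia, fell in wildtype from 119, 99.9 and 111 to 59.3, 53.6 and 53.4 CPM and rose in Nr6a1-/- from 113, 112 and 135 to 267, 198 and 277 CPM. For Ddit4 the difference was 2.04 ± 0.18 (edgeR adjusted p = 1.68e-09), and 2.01 without. Pdk1, which restrains pyruvate dehydrogenase, fell in wildtype from 58.4, 51.1 and 60 to 24.4, 28.2 and 25.2 CPM with no called change in Nr6a1-/- (1.34 ± 0.19; 1.41 without). Gpi1, a glycolytic isomerase, rose in Nr6a1-/- from 178, 182 and 193 to 255, 226 and 266 CPM (0.60 ± 0.12; 0.64 without). These 4 held in all single omissions, whereas Aldoc (1.55; 1.45 without) held in 10 of 12, being lost without Nr6a1-/- d3 replicate 2 or wildtype d3 replicate 3. Slc2a3, a glucose transporter (0.59, 0.57 without; 0.41 to 0.73), was lost without Nr6a1-/- d3 replicate 1 or 2, wildtype d3 replicate 1 or 2, Nr6a1-/- d4 replicate 3, or wildtype d4 replicate 2 or 3. Pfkp, a phosphofructokinase (1.62, 1.63 without; 1.22 to 2.07), was lost without Nr6a1-/- d3 replicate 1 or 2, wildtype d3 replicate 1, 2 or 3, Nr6a1-/- d4 replicate 1 or 2, or wildtype d4 replicate 2 or 3.

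The called genes of the amino acid and unfolded protein response were all lower, with 0 higher and 5 lower of 19 (0 and 3 without wildtype d4 replicate 2) and a median of -0.43 (-0.29 without). The 5 were 26.3% of the list, against 5.72% called over all genes. Atf4, the transcription factor at the head of that response, rose in wildtype from 152, 151 and 144 to 216, 259 and 239 CPM, while Nr6a1-/- stood at 206, 198 and 207 CPM at d3 and 199, 191 and 174 CPM at d4. The difference of Atf4 was -0.80 ± 0.14 (edgeR adjusted p = 2.72e-04), against -0.73 without. Mthfd2, a mitochondrial folate enzyme and Atf4 target, rose in wildtype from 116, 111 and 102 to 192, 207 and 192 CPM with 184, 159.5 and 176 CPM at d3 and 148, 179 and 175 CPM at d4 in Nr6a1-/-. Mthfd2 differed by -0.90 ± 0.13, or -0.86 without. Both were called higher in Nr6a1-/- at d3, whereas at d4 Atf4 was called lower and Mthfd2 was not called. Hspa5, Chac1 and Slc7a3 made up the 5 lower genes (-0.44, -1.43 and -1.40), and the last 2 were lost without wildtype d4 replicate 2 (-0.90 and -0.29). Hspa5, an endoplasmic reticulum chaperone (-0.47 without wildtype d4 replicate 2), was lost without Nr6a1-/- d3 replicate 1, wildtype d3 replicate 3 or wildtype d4 replicate 1. Chac1, which degrades glutathione, was lost without Nr6a1-/- d3 replicate 1 or 2, wildtype d3 replicate 2 or 3, Nr6a1-/- d4 replicate 3, or wildtype d4 replicate 2. The count fell to 2 without Nr6a1-/- d3 replicate 1 or wildtype d3 replicate 3, and to 3 without Nr6a1-/- d3 replicate 2, wildtype d3 replicate 2 or Nr6a1-/- d4 replicate 3.

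Epithelial and mesenchymal genes gave 1 higher and 5 lower of 23, or 26.1% against 5.72% called over all genes (1 and 4 without wildtype d4 replicate 2). Cldn6 and Cldn7, tight junction claudins, fell in Nr6a1-/- from 27.3, 30.8 and 30.1 to 8.23, 5.32 and 6.82 CPM and from 17.3, 19.2 and 17.1 to 3.47, 2.9 and 2.13 CPM. Wildtype cells held 43.4, 31.3 and 50 CPM at d3 and 32.7, 35.1 and 26.4 CPM at d4 of Cldn6 and 20.8, 23 and 29.6 CPM at d3 and 18.3, 32.6 and 16.8 CPM at d4 of Cldn7, the 32.6 being that of wildtype d4 replicate 2. The differences were -1.68 ± 0.28 and -2.54 ± 0.38 (edgeR adjusted p = 1.05e-04 and 1.79e-05; -1.58 and -2.14 without that library). Krt8, a keratin of simple epithelia, fell in both and further in Nr6a1-/- (-0.93 ± 0.22; -0.89 without). The call of its partner Krt18 (-0.56, -0.58 without; -0.63 to -0.50 over the omissions) was lost without Nr6a1-/- d3 replicate 1 or 2, wildtype d3 replicate 1 or 3, Nr6a1-/- d4 replicate 2 or 3, or wildtype d4 replicate 3. Epcam, an epithelial adhesion molecule, was at 67.1, 157 and 61.5 CPM in the wildtype d4 libraries, and its difference of -0.91 was -0.31 without wildtype d4 replicate 2. Its call was lost without Nr6a1-/- d3 replicate 2 or 3, wildtype d3 replicate 1 or 2, Nr6a1-/- d4 replicate 2 or 3, or wildtype d4 replicate 2. Cdh1, which encodes E-cadherin, was not called (-0.75; -0.10 without wildtype d4 replicate 2). Vim, the intermediate filament gene of mesenchymal cells, fell in wildtype from 152, 141 and 137 to 80.6, 74.9 and 79.3 CPM with no called change in Nr6a1-/- (177, 205 and 217 CPM at d3 and 197, 172 and 206 CPM at d4; 0.82 ± 0.14; 0.78 without). The lower count was 3 when Nr6a1-/- d3 replicate 2, wildtype d3 replicate 1, or Nr6a1-/- d4 replicate 2 or 3 was left out.

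Basement membrane and collagen genes split, with 2 higher and 2 lower of 17, or 23.5% against 5.72% called over all genes, and the same counts without wildtype d4 replicate 2. Lama1, a laminin chain, rose in Nr6a1-/- from 7.23, 8.55 and 13.8 to 28.2, 35.8 and 38.8 CPM, against wildtype levels of 43, 42.8 and 38 CPM at d3 and 53.2, 36.2 and 40.5 CPM at d4. For Lama1 the difference was 1.73 ± 0.25, and 1.61 without. Nid1, which links laminin to collagen IV, fell in wildtype from 8.69, 8.29 and 6.8 to 2.18, 1.66 and 3.3 CPM and was at 4.02, 2.99 and 2.98 CPM at d3 and 5.2, 3.87 and 4.26 CPM at d4 in Nr6a1-/-. The difference of Nid1 was 2.12 ± 0.49, against 1.88 without. Fn1, which encodes fibronectin, rose less in Nr6a1-/- (0.42) than in wildtype (1.15; difference -0.73 ± 0.16; -0.79 without), and Sparc fell more (-1.29 against -0.50; -0.78 ± 0.17; -0.85 without).

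Imprinted genes gave 2 higher and 4 lower of 24, or 25% against 5.72% called over all genes (2 and 3 without wildtype d4 replicate 2, Snrpn being lost), with a median of -0.08 (-0.22 without). H19, a maternally expressed long non-coding RNA (chr7:142575529-142578143, minus strand), rose in wildtype from 12.6, 12 and 10 to 114, 102 and 114 CPM and was at 2.01, 1.28 and 0.744 CPM at d3 and 1.73, 0.968 and 2.13 CPM at d4 in Nr6a1-/-. H19 differed by -2.97 ± 0.63 (edgeR adjusted p = 0.00244), or -3.02 without. Its call was lost without Nr6a1-/- d3 replicate 1 (-3.27 to -2.57 over the omissions). Cdkn1c, a growth-restraining kinase inhibitor, and Phlda2, a placental growth regulator, share with H19 the distal end of chromosome 7. Cdkn1c was not called between the genotypes at d3 and fell in Nr6a1-/- from 63.8, 76.5 and 60.3 to 18.6, 28.5 and 29 CPM while wildtype held 72.4, 62.6 and 70.8 CPM at d3 and 72.4, 74.6 and 63.6 CPM at d4. For Cdkn1c the difference was -1.43 ± 0.19 (edgeR adjusted p = 4.65e-06), and -1.38 without. Phlda2 rose in wildtype from 103, 122 and 104 to 438, 390.1 and 446 CPM and in Nr6a1-/- from 177, 174 and 161 to 259, 289.8 and 217 CPM. The difference of Phlda2 was -1.37 ± 0.14 (edgeR adjusted p = 1.98e-08), against -1.43 without. Peg3, which is paternally expressed, was higher, falling in wildtype from 379.9, 412 and 389 to 289, 279 and 261 CPM and standing at 725, 804 and 674 CPM at d3 and 878, 837 and 639.5 CPM at d4 in Nr6a1-/-. Peg3 differed by 0.61 ± 0.13, or 0.62 without. Sgce was also higher (0.94; 0.96 without), a call lost without wildtype d3 replicate 3 or Nr6a1-/- d4 replicate 3. Without Nr6a1-/- d3 replicate 1 the lower count was 2, and without Nr6a1-/- d4 replicate 1 the higher count was 4 and the median -0.35.

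The result for epiblast and pluripotency genes turned on wildtype d4 replicate 2. With it, 1 gene was higher and 6 lower of 23 (30.4%, against 5.72% called over all genes), with a median of -1.25. Without it, 1 was higher and 2 lower, with a median of -0.27. Dnmt3b, a de novo DNA methyltransferase of the epiblast, was at 71.1, 516 and 68.7 CPM in the wildtype d4 libraries and 80.1, 85.6 and 86.1 CPM in Nr6a1-/- d4, and its difference went from -1.87 to -0.19. Utf1, a chromatin factor of pluripotent cells, went from -2.31 to -0.42, Slc7a3 from -1.40 to -0.29 and Tdgf1, a Nodal co-receptor, from -2.23 to -1.49, and these 4 lost their calls. Utf1 was also lost without Nr6a1-/- d3 replicate 1, wildtype d3 replicate 1 or 3, or Nr6a1-/- d4 replicate 2 or 3, Dnmt3b without wildtype d3 replicate 3 or Nr6a1-/- d4 replicate 3, and Slc7a3 in 10 of the 12 omissions. Pou5f1, a known target of repression by Nr6a1, fell in both genotypes and was not called in either fit (-1.25 and -0.20). The 2 lower genes in both fits were L1td1, above, and Tdh, a threonine dehydrogenase of pluripotent cells. Tdh fell from 55, 45.1 and 56.4 to 25.3, 21.6 and 22.8 CPM in wildtype and from 47.4, 70.1 and 56.9 to 7.36, 8.71 and 6.82 CPM in Nr6a1-/-. For Tdh the difference was -1.74 ± 0.25 (edgeR adjusted p = 1.32e-05), and -1.80 without. Fgf4 was the higher gene. The lower count was 3 without wildtype d3 replicate 3 or Nr6a1-/- d4 replicate 3.

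**Figure D4:**
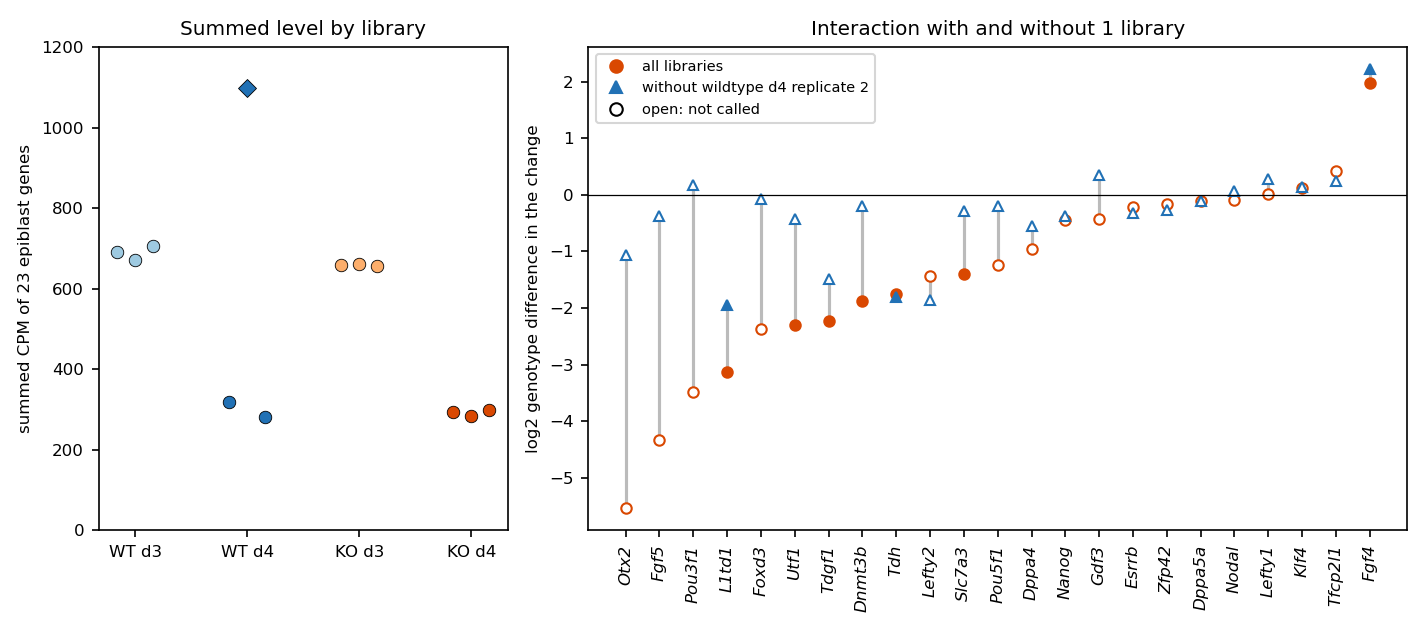
Left, summed level of 23 epiblast and pluripotency genes (y axis, CPM) in each wildtype (WT) and Nr6a1-/- (KO) library at d3 and d4, with a diamond for wildtype d4 replicate 2 at 1098 CPM. Right, the genotype difference in the change (y axis, log2) of each gene with all libraries (circles) and without that library (triangles), filled where called; for 4 of the 6 lower genes the call is lost.

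The remaining lists, some of which turned on single libraries, stand against a share called of 5.72% over all genes. Above it lay feeder fibroblast (57.1% of 7), lateral and vascular mesoderm (20% of 5) and DNA methylation and Polycomb genes (15.8%). So did mitochondrial ribosomal protein genes (12%), p53 targets (10%) and endoderm genes (7.69%). Below it lay DNA replication (4.35%), mitosis (4.17%), sterol and fatty acid synthesis (3.23%), oxidative phosphorylation (1.3%), cytosolic ribosomal proteins (1.12%) and Lin28 and Igf2bp genes (0%). Cytosolic ribosomal protein genes gave 0 higher and 1 lower of 89, median -0.14, but 50 lower and a median of -0.38 without Nr6a1-/- d4 replicate 1. Mitochondrial ribosomal protein genes gave 1 and 8 of 75 (1 and 4 without wildtype d4 replicate 2), and the 8 became 14 without Nr6a1-/- d4 replicate 1 and 1 without Nr6a1-/- d3 replicate 2 or Nr6a1-/- d4 replicate 3. Oxidative phosphorylation genes gave 1 and 0 of 77, and 3 and 13 without Nr6a1-/- d4 replicate 1. For these 3 lists the counts with and without 1 library thus lie far apart. Sterol and fatty acid synthesis gave 0 and 1 of 31 (Elovl6, -0.66; -0.68 without wildtype d4 replicate 2), mitosis 1 and 0 of 24 (Nusap1), and DNA replication 0 and 1 of 23 (0 and 0 without wildtype d4 replicate 2). The p53 targets gave 1 and 1 of 20 (Phlda3 and Btg2), and DNA methylation and Polycomb genes 1 and 2 of 19 (2 and 0 without). Lin28 and Igf2bp genes gave 0 and 0 of 6 (0 by DESeq2; 1, Hmga2, at an unadjusted p below 0.05 in edgeR). The call of Nusap1 was lost without wildtype d3 replicate 3 and that of Btg2 without replicate 2 of Nr6a1-/- d3 or d4. Jarid2, a Polycomb cofactor called in all 12 single omissions, was at 98.5, 92.5 and 85.6 CPM in wildtype d3, 56.7, 96.4 and 46.8 in wildtype d4, 90.7, 77.8 and 81.1 in Nr6a1-/- d3 and 131, 112 and 128 in Nr6a1-/- d4. The difference of Jarid2 was 1.02 ± 0.22, against 1.41 without. Markers of other cells gave 0 and 1 of 13 for endoderm (Foxa2, -2.58, -2.56 without, lost in every omission but that of Nr6a1-/- d3 replicate 3; Spink1 without wildtype d4 replicate 2). They gave 0 and 1 of 5 for lateral and vascular mesoderm (Etv2, -1.95; -1.60 without) and 2 and 2 of 7 for feeder fibroblasts (0 and 2 without). Thy1, a surface glycoprotein on that last list, was at 3.38, 2.3 and 5.2 CPM at d3 and 6.54, 6.91 and 7.2 CPM at d4 in wildtype and 10.8, 8.98 and 10.04 CPM at d3 and 2.17, 3.39 and 2.13 CPM at d4 in Nr6a1-/-. Thy1 differed by -2.85 ± 0.46, or -2.85 without.

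**Figure D5:**
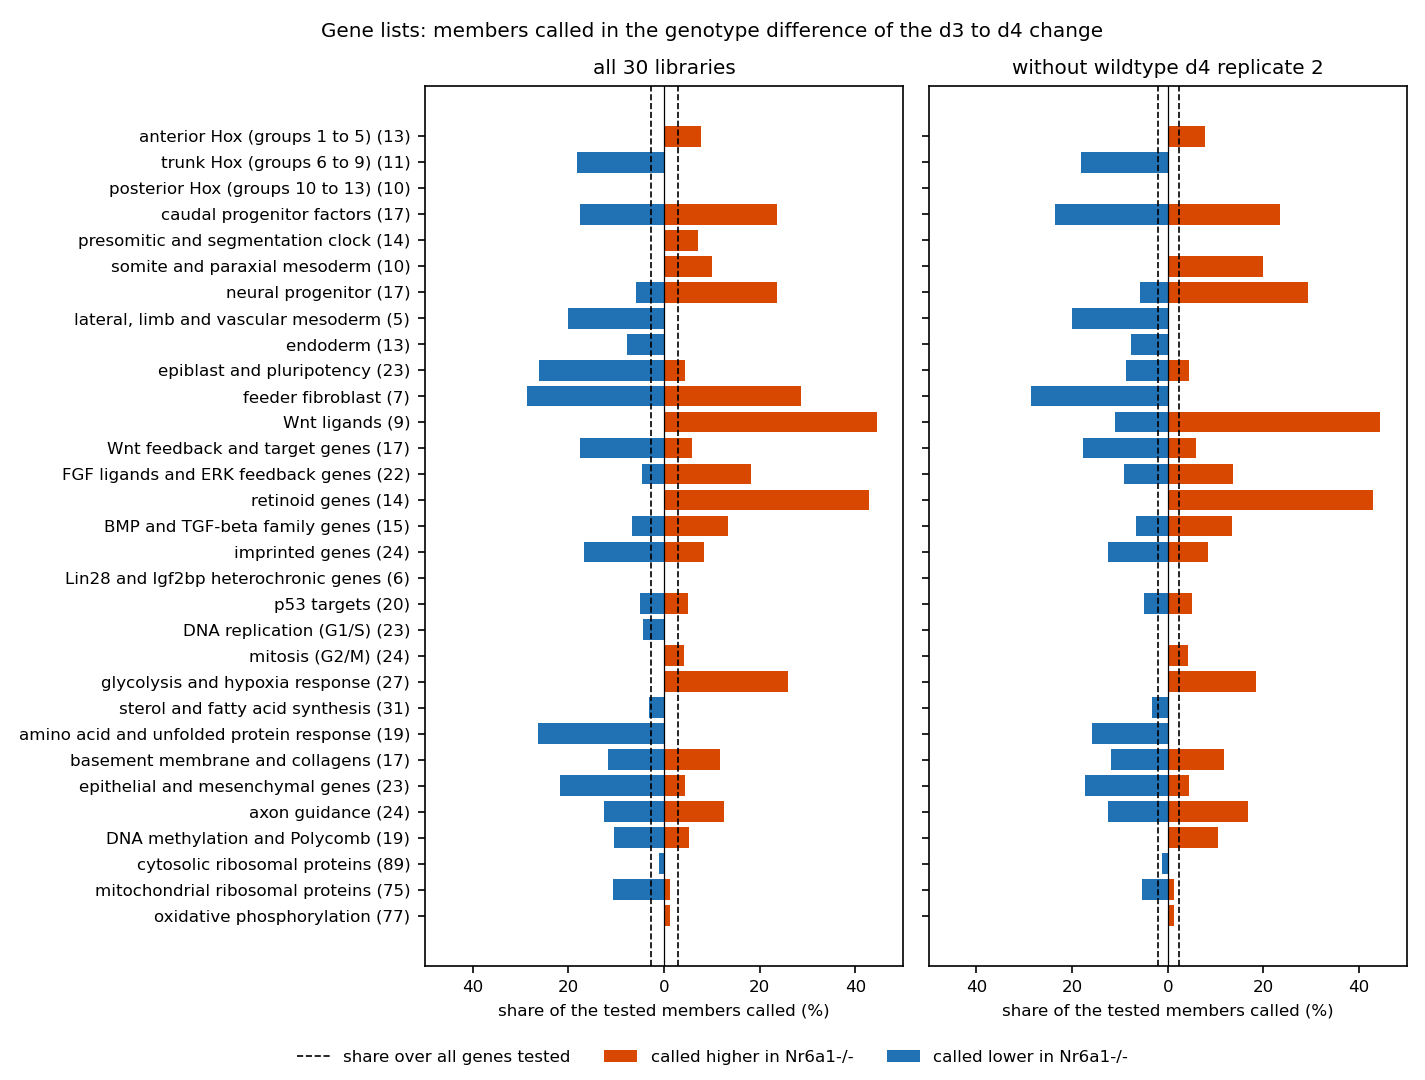
Share of each list's measured members (number in brackets) called higher (orange, to the right) or lower (blue, to the left) in Nr6a1-/-, in percent, with all 30 libraries on the left and without wildtype d4 replicate 2 on the right; dashed lines mark the shares over all genes tested. Retinoid genes and Wnt ligands reach furthest to the right in both panels, and the bar of the epiblast list to the left shortens from 6 genes to 2.

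Of the 120 genes called among those named or listed, 78 were called in each of the 12 single omissions, 6 in 11 of them and 36 in fewer. By chromosome, the median difference lay between -0.07 and 0.07, with chromosome 8 at 0.07 although its genes as a whole were lower in Nr6a1-/- on both days, with medians of -0.37 at d3 and -0.29 at d4.

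The d4 cells of the Gdf11 arm, a separate set of libraries that were given Gdf11 as well, hold the same genotype contrast, for which 960 genes were called (7.9% of those tested). Of the 395 genes called between the genotypes at d4 and not at d3, 294 had the same sign in that arm, 91 were called there in the d4 direction and 8 against it. Of the 67 genes whose gap widened, 65 had the same sign and 54 were called in the same direction, with 1 against. Of the 56 genes called on both days in opposite directions, 32 had the d4 sign, 9 were called in the d4 direction and 0 against it. Of the 122 genes called at d3 and no longer at d4, 51 had the d4 sign, which for these genes is that of a difference not called, and 7 were called against it. Over all genes tested, called at d4 or not, 62.3% had the same sign at d4 with and without Gdf11. That share includes genes with no called difference, so it is not a like yardstick for genes picked as called at d4. The share among all genes called on both days is not given here.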

How the data were processed

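RNA was measured in 30 libraries, 12 of which (wildtype and Nr6a1-/- cells at d3 and d4, 3 replicates each) enter the comparison. The deposited values are whole-number counts per gene symbol, which the authors made from 3′ poly(A)-primed libraries with unique molecular identifiers. The submitters' processing notes name STAR, edgeR and mm10. Strand, the counting tool, the annotation and whether reads of 1 molecule were merged are not given in the sources used here. The authors' tables for single stages also hold their fold changes and p-values, which were not used, and their count columns differed from the count table in 0 of 24294 values.

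A gene was kept where 2 or more libraries of a group each held over 10 counts and over 2 CPM. A single fit of 10 groups over all 30 libraries was made with TMM factors and the edgeR quasi-likelihood test (edgeR 4.0.16, limma 3.58.1, R 4.3.3). It leaves 20 residual degrees of freedom, 19 without wildtype d4 replicate 2. Adjusted p-values follow Benjamini-Hochberg over all genes tested, with a threshold of 0.05. The SE was taken from the size of each log2 value and the root of its F statistic. CPM use TMM-scaled library sizes after filtering, and means ± SD are over 3 libraries. Script steps were checked on simulated counts. The labels do not say that replicates are separate cultures, so p-values measure the spread between these libraries, which may be technical. In the sample descriptions, Nr6a1-/- replicates 2 and 3 each carry the same index at d3 and at d4. The study's methods add the index before pooling, so the d3 and d4 libraries of these replicates would lie in different pools. No label names a pool, and a difference between pools could not be told apart from their d3 to d4 change. Intervals (95%) and floors (3 counts over a group) cover counting error only.

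Named genes were the 12 largest differences in each direction among genes called in both fits, with a group mean of 10 CPM or more and no Gm or Rik name, the largest for each pattern of change, members of the lists, and Nr6a1, Nr6a1os and Hoxb13. The comparison, the lists and the rule were chosen with earlier results of these data known. Positions came from GENCODE on GRCm38 (12002 genes matched by symbol, 98.8%) and promoters from RefSeq on GRCm38.p6. DESeq2 1.42.0, other scalings, no filter, the 12 libraries alone, thinned counts, a stricter threshold, a replicate block and the omission of each library were tried as alternatives. The arm with Gdf11 was used only for the values under the closing observations. Some members of the lists are not reported here.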

Additional observations from a re-analysis of the deposited data

Results flagged for a closer look

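The change from d3 to d4 differed between the genotypes for 695 genes by the test of the difference itself (edgeR quasi-likelihood interaction, adjusted p below 0.05), 5.72% of those tested. For 60 genes the changes were called in opposite directions with all libraries and the difference was called with and without wildtype d4 replicate 2. Among the 12 largest differences in each direction, those that fell in wildtype cells and rose in Nr6a1-/- cells were Rhbg (difference 8.41 on the log2 scale, with 0 counts in wildtype d4), L1cam (5.25) and Fabp7 (3.34). Those that rose in wildtype cells and fell in Nr6a1-/- cells were Pim2 (-3.78), Dkk1 (-2.98), Flt1 (-2.72), Car4 (-2.61), mt-Nd3 (-2.49) and Gpx2 (-2.48). The rise of Pim2 in wildtype rested on wildtype d4 replicate 2, without which its difference was -1.54, and the fall of Rhbg in wildtype was not called without that library. All 9 were called in each of the 12 single omissions. Other genes described above, such as Ddit4 and Epha5, also changed in opposite directions and are not repeated here.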

How the results depend on the processing

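The difference was called for 440 genes when only the 12 libraries were fitted, for 406 with their counts thinned to the smallest total and for 296 at an adjusted p below 0.01, against 695, and for 447 to 1147 when 1 library was left out, with 0 changes of sign among called genes in these settings. DESeq2 called 590, and without scaling factors 765 were called, 329 higher and 436 lower (43% higher, against 361 and 334). At an adjusted p below 0.01 the d3 to d4 change in wildtype cells was called for 1527 genes and the d3 to d4 change in Nr6a1-/- cells for 2017. No source used here says that a replicate number marks a shared batch, and 7 of 18 same-numbered pairs, not all, had deviations correlated above 0.1, so the numbers were not taken to pair the libraries. As a hint from the data, 9 of 12 libraries correlated best with their own number, and with the numbers as a block 787 genes were called. With 0 and 1 counts at d3, the difference of Meox1 could not be estimated (SE 20.7).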

Other observations

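Genes described above held unevenly in the d4 cells of the Gdf11 arm. Fabp7, the brain fatty acid binding protein, was higher in Nr6a1-/- there by 3.10 on the log2 scale (edgeR adjusted p = 1.28e-11), and Kcna2, the potassium channel, by 3.45 (edgeR adjusted p = 2.58e-04). Ntm, the adhesion protein, had 1.54 there (edgeR adjusted p = 0.363) against 3.80 at d4 without Gdf11, and T had -0.53 there (edgeR adjusted p = 6.60e-04) against 0.69. Whether the genotype contrast differs between the arms was not tested.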
